A study of Mus musculus with 9 samples.

Results

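The comparison described here set mouse embryonic fibroblasts reprogrammed towards GABAergic interneurons (iGABA) against the fibroblasts that they were made from (MEF). It was chosen by the labels alone: the 3 iGABA and the 3 MEF libraries, 6 of the 9 RNA-seq libraries of the series, with all genes. The other 3 libraries, cortical GABAergic interneurons (GAD67), are given beside single genes as a reference, and any comparison with them uses the same iGABA libraries. The MEF libraries came from primary fibroblasts of E13.5 C57BL/6 embryos, which were trypsinised and not sorted. Their labels also mention that the culture was later moved from fibroblast medium into a medium for neuronal induction. Whether RNA was taken before or after that move is left unsaid, so the baseline may be either. The iGABA libraries came from such fibroblasts after 14 days in vitro (DIV) of reprogramming, of which 2 DIV were in fibroblast medium and the rest in neuronal medium, and the cells were trypsinised and sorted for green fluorescent protein (GFP). The GAD67 cells were sorted for GFP from the E18.5 cortex. The labels used here name neither the reprogramming factors nor the reporter gene, and they do not say whether the 3 libraries of a group came from separate cultures, so a p-value here reflects only how far these libraries scatter, a scatter that may be technical.

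Direct reprogramming turns one differentiated cell type into another by forced expression of transcription factors, without a pluripotent stage. Fibroblasts build and pull on the extracellular matrix: they secrete collagens, hold on to them through integrins and focal adhesions, and answer to growth factors such as TGF-beta. GABAergic interneurons release the inhibitory transmitter GABA from synaptic vesicles, and many of them also release peptides from a different organelle, the dense-core vesicle. In cells outside the nervous system the repressor REST, which binds a DNA element called RE1 in and near neuronal genes, holds much of the neuronal programme silent.

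The libraries held 27501521 to 38854863 counts, so that 3 counts in a library correspond to 0.0772 to 0.109 CPM, counts scaled to a common library size. All levels are CPM after TMM normalisation, in which a scaling factor per library corrects for differences in RNA composition, and folds between the groups come from edgeR's quasi-likelihood test on the counts with Benjamini-Hochberg adjustment over 18085 genes. The summed level of 10 fibroblast markers was 72751, 80000 and 79807 CPM in the MEF libraries and 891, 717 and 1001 CPM in the iGABA libraries. All 10 markers fell, but Pdgfra and Thy1, singled out after their values were seen, kept means of 152 and 164 CPM in iGABA cells against 277 and 409 CPM in MEF. Of 10 neuronal markers 9 rose; the exception was Stmn2, a microtubule regulator of growing axons, which fell from a mean of 33.5 to 23.3 CPM, a call lost under scaling by library size alone. Macrophage genes were present in MEF: 12 markers summed to 290 to 315 CPM there and to 13.1 to 14.5 CPM in iGABA cells, where Cd68 (11.7 CPM) made up most of the sum, and C1qb, a complement gene of macrophages, had a mean of 41.9 CPM in MEF and 0.0162 CPM in iGABA. Cx3cr1, a receptor of the same cells, had no count in any iGABA library. The MEF cells were not sorted and the iGABA cells were, and the part of this difference in the results below was not tested. Of 8 endothelial markers 5 fell and 3 did not pass, and all 8 tested skeletal muscle markers fell. The 3 were nearly absent from both groups: Pecam1 had 22 counts in MEF and 33 in iGABA, Tie1 3 and 0, and Cldn5 0 and 1. Tie1 and Cldn5 passed the filter on low counts through the cortical cells, so their result says nothing about this contrast. The same holds for Cdh5, one of the 5 that fell, with 29 counts in MEF and 0 in iGABA. Both groups held RNA of both sexes: the X-inactivation RNA Xist was at 404, 387 and 189 CPM in MEF and 1308, 1228 and 1287 CPM in iGABA (adjusted p = 0.083, edgeR), and the Y-linked Ddx3y at means of 115 and 55.8 CPM. The groups did not overlap for Xist. The fit behind its p-value also took in the scatter of the cortical libraries, which held 16246, 142 and 36935 Xist counts. In bulk RNA, fewer cells of a type and less RNA per cell cannot be told apart.

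The conversion reached most of the measured genes. Of 18085 tested genes 7618 (42.1%) rose and 7188 (39.7%) fell at an adjusted p under 0.05, together 81.9% of the genes, and a further 3279 did not pass. Any single gene or list must be read against that background. Under scaling by library size alone, without TMM, the median over all genes moved from 0.05 to 0.46 on the log2 scale, and the split became 9941 higher against 5283 lower, so that 65.3% of the called genes were higher in place of 51.5%. Many of the changes were large. At least 4-fold higher were 2369 genes (13.1%), and at least 4-fold lower 2532 genes (14.0%); beyond 16-fold there were 1000 and 1236 genes. Tested against a 2-fold change (edgeR glmTreat), 3590 genes (19.9%) rose and 3695 (20.4%) fell. The libraries of the groups did not overlap for 84.9% of the genes.

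The losses weighed more in the RNA pool than the gains did. Genes at least 4-fold lower took up 34.9% ± 0.705 (SD, n = 3) of all MEF counts and 2.81% ± 0.185 (SD, n = 3) of the iGABA counts. Genes at least 4-fold higher took up 1.13% ± 0.0451 and 15.8% ± 0.125 (SD, n = 3 each), a description, because these genes were chosen by the same contrast. The 100 most abundant genes of each library held 26.1% ± 0.579 of the counts in MEF and 15.5% ± 0.149 in iGABA (SD, n = 3 each), so the counts were less concentrated in the most abundant genes. Mitochondrially encoded genes went from 0.973% ± 0.0828 to 4.24% ± 0.207 of the counts (SD, n = 3 each). The libraries of the groups did not overlap for any of the 13 shares not chosen by this contrast, and each two-sided exact permutation test gave p = 0.1, the smallest that 3 libraries against 3 allow. The number of genes with a mean of at least 1 CPM barely differed, with 14370 in MEF and 14302 in iGABA; 13017 were shared, 1353 reached that level in MEF alone and 1285 in iGABA alone.

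4 of the genes with the largest gain or loss in CPM, mitochondrially encoded genes left out, come from imprinted loci whose products act in fetal growth: Dlk1 and Meg3, neighbours on chromosome 12, gained, and Igf2 and H19, neighbours on chromosome 7, lost. Dlk1 (chr12:109452823-109463336, mm10, plus strand), a membrane protein related to Notch ligands, was at 1344, 1437 and 1479 CPM in MEF and at 5943, 6146 and 6053 CPM in iGABA. Meg3 (chr12:109541001-109571726, plus strand), a noncoding RNA expressed from the maternal copy, was at 2748, 1706 and 1648 CPM in MEF and 5200, 5382 and 5080 CPM in iGABA. In both, every iGABA library was above every MEF library, with log2 fold changes of 2.09 (SE 0.08, adjusted p = 6.12e-11) and 1.36 (SE 0.15, adjusted p = 2.56e-06, edgeR). The growth factor gene Igf2 (chr7:142650766-142666816, minus strand) was at 15027, 16104 and 16763 CPM in MEF and at 50.1, 37.0 and 60.1 CPM in iGABA, and the noncoding RNA H19 (chr7:142575529-142578143, minus strand) at a mean of 12224 CPM in MEF and 44.5 CPM in iGABA. Their groups lay far apart, with log2 fold changes of -8.35 (SE 0.25, adjusted p = 4.17e-12) and -8.10 (SE 0.17, adjusted p = 1.78e-13, edgeR).

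A pair of other imprinted genes was also among the largest gains. Nnat (chr2:157560078-157562522, plus strand), which encodes the small membrane protein neuronatin, was at 12.4, 12.3 and 13.0 CPM in MEF and 2948, 3166 and 2830 CPM in iGABA, a log2 fold change of 7.89 (SE 0.08, adjusted p = 2.05e-15, edgeR). Its mean in iGABA, 2981 ± 170.2 CPM, differed little from that of the cortical interneurons, 3046 ± 49.0 CPM (SD, n = 3 each; log2 fold change -0.03, adjusted p = 0.651, edgeR). Peg3, a zinc-finger protein gene, went from 672, 723 and 599 CPM to 2375, 2260 and 2390 CPM (log2 fold change 1.82). Dlk1, by contrast, was at only 13.0 to 16.4 CPM in the cortical cells, far below both MEF and iGABA.

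The other large gains were neuronal surface and receptor genes and a lipid enzyme. Cntn2, an axonal cell adhesion molecule, rose from a mean of 4.13 to 1307 CPM, Sez6, a dendritic membrane protein, from 1.80 to 1275 CPM, and Grik3, a kainate receptor subunit, from 1.69 to 1205 CPM. Scd2, a stearoyl-CoA desaturase, was already high in MEF and rose from 2222 to 3436 CPM. The mean of Cntn2 was also above the 148 to 149 CPM of the cortical interneurons, by 3.14 on the log2 scale (adjusted p = 8.7e-13, edgeR).

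**Figure D1:**
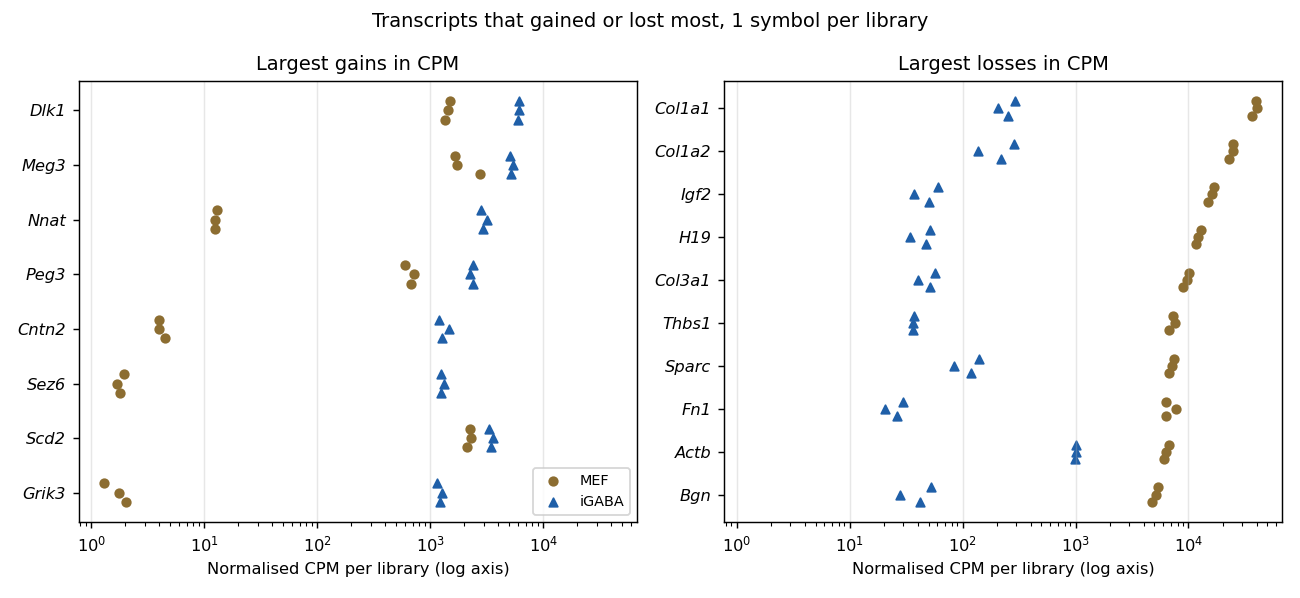
Levels of the genes with the largest gain and largest loss in mean CPM, mitochondrially encoded genes left out, on a log axis; each point is 1 library, MEF and iGABA in separate colours, 3 of each. The libraries of a group lie close together for nearly every gene, and the gap between groups spans from that of Scd2 (means of 2222 and 3436 CPM) to that of Grik3 (1.69 and 1205 CPM).

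Matrix genes led the losses. Col1a1, the main fibrillar collagen chain, was at 36474, 40446 and 39707 CPM in MEF and 255, 205 and 290 CPM in iGABA (log2 fold change -7.28, SE 0.14), and its partner chain Col1a2 fell from a mean of 24134 to 214 CPM. Col3a1 fell from 9587 to 49.4 CPM and Fn1, fibronectin, from 6798 to 25.6 CPM. Thbs1, a thrombospondin of the matrix, was at 36.7, 36.4 and 37.0 CPM in the iGABA libraries after 6780, 7598 and 7295 CPM in MEF. Sparc, a collagen-binding secreted protein, fell by 5.95 on the log2 scale and the proteoglycan Bgn by 6.97. Actb, cytoplasmic beta-actin and a gene often used as a constant reference, fell from 6055, 6387 and 6769 CPM to 1000 to 1005 CPM, a log2 fold change of -2.68 (SE 0.07, adjusted p = 6.66e-13, edgeR).

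Among genes of at least 100 CPM in the higher group, the largest relative gain was that of Ntsr2, a neurotensin receptor. The 3 MEF libraries held 1 count of it in all and the iGABA libraries 14029, a ratio of 11150 with a 95% counting interval of 2001 to 440441. Ap3b2, the neuronal subunit of an adaptor for vesicle budding, rose from a mean of 0.155 to 218 CPM and Sox21, a transcription factor of neural progenitors, from 0.167 to 200 CPM. In the other direction the largest falls included Flt1, a VEGF receptor (228 to 0.173 CPM), Lyz2, the lysozyme of macrophages (225 to 0.177 CPM), and Hmga2, a chromatin protein of fetal and proliferating cells (185 to 0.194 CPM). Lyz2 and Flt1 are markers of macrophages and of endothelium as well, and the part of such cells in these falls was not tested.

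The transcription factors that pattern the nervous system moved in both directions. Gsx2, a ventral forebrain progenitor factor, had no count in MEF and 7685 in iGABA, at least 2036-fold higher when 3 counts over the group are taken as the floor. Dbx1, a progenitor factor of the hypothalamus, hindbrain and spinal cord, had no count in MEF and 1232 in iGABA, at least 326-fold higher. Both were named after their values were seen. Of 20 forebrain and midbrain patterning factors 13 passed the filter on low counts, and of these 3 rose, 4 fell and 6 did not pass (median log2 fold change -0.60). The dorsal midbrain and dorsal neural tube factor Pax7 went from 1 count in MEF to 2149 in iGABA (ratio 1708, interval 306 to 67494), and Otx1, a forebrain and midbrain factor, from 3 to 166 counts (ratio 44.0, interval 14.8 to 215). Emx2, a dorsal forebrain factor, fell from 27.8 to 4.42 CPM, Lhx2 from 4.42 to 0.454 CPM and Irx3 from 17.4 to 2.02 CPM. A fall from the level of fibroblasts does not give a regional profile of the iGABA cells.

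The factors of GABA neurons of the spinal cord and brainstem split evenly: of 20 listed 10 were tested, 5 rose and 5 fell. Gata2, which specifies GABA neurons of the midbrain and spinal cord, was at 2.05, 2.07 and 2.11 CPM in MEF and 48.7, 43.7 and 55.9 CPM in iGABA, a log2 fold change of 4.57 (SE 0.13, adjusted p = 1.64e-12, edgeR), against 0.212 to 0.358 CPM in the cortical cells. Every iGABA library was above every MEF library. Its relative Gata3 moved the other way, from a mean of 7.54 to 0.459 CPM. Tal1, a partner of both in spinal cord, had 69 counts in MEF and none in iGABA, at least 28.9-fold lower. The MEF cells were not sorted, and the part of other cell types in the fall of Tal1 was not tested. Foxn4 and Lhx5, of spinal progenitors and interneurons, had no count in MEF and 459 and 412 in iGABA, at least 122-fold and 109-fold higher. The median of the 10, 0.15, turned negative under a stricter filter (7 genes left, -1.32), so no direction is given for the list. Of 8 tested factors of motor, sensory, autonomic and hindbrain neurons 2 rose and 5 fell. Over all tested genes 42.1% rose and 39.7% fell, and 8 genes are too few for a direction. Lmx1b, a factor of serotonin and dopamine neurons and of limb mesenchyme, rose from 16.5 to 32.2 CPM, and Isl1, a factor of motor neurons, fell from 1.81 to 0.25 CPM.

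The repressor of neuronal genes fell with the conversion. Rest (chr5:77265491-77286432, mm10, plus strand) was at 115, 129 and 111 CPM in MEF and at 3.32, 1.98 and 4.19 CPM in iGABA. The groups did not overlap, and the iGABA libraries were also below the 11.7 to 18.98 CPM of the cortical interneurons. The log2 fold change was -5.25 (SE 0.21, adjusted p = 7.14e-11, edgeR). Of the CoREST corepressor genes, Rcor1 rose from 129 to 163 CPM and Rcor2, the paralogue enriched in neural cells, from 34.3 to 151 CPM.

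The RE1 element that REST binds was then searched for in promoter windows from 250 bases before to 50 after the gene start (RefSeq, GRCm38.p6, the assembly of mm10), on both strands. The RE1 element has 21 bases, of which the central pair is not specified, and at most 3 mismatches were allowed among the 19 defined bases, a choice made after the data were seen. Windows were available for 12006 of the tested genes, 15341 in all, and 20 of them (0.130%) held the element. Of these 20 genes 17 rose, 1 fell and 2 did not pass. The 1 fall, that of Rasgrf1, is limited by its low counts, as set out below. Of all 15341 windows 6868 belonged to genes that rose and 6175 to genes that fell. Among the windows of genes at least 16-fold higher, 10 of 839 (1.19%) held it, and among those of genes at least 16-fold lower 0 of 1077. The matches of the 10 genes at least 16-fold higher are shown, because they let the element be read beside the gene's level. Each is written in the orientation of the element, with bases that match it in capitals and the unspecified centre and mismatches in lower case.
Lhfpl5: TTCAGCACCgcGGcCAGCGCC
Hrh3: ggCAGCACCacGGACAGCGCC
Syn1: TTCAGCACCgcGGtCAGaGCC
Ttc9b: aTCAGCACCggGGACAGCGCg
Rph3a: gTCAGtACCacGGACAGCaCC
Celsr3: TTCAGCACCgtGGgCAGCaCt
Chrm4: TcCAGCACCgaGGgCAcCGCC
Fam163b: gTCAGCACCagGGACAGttCC
Sptbn4: TcCAGCACCacGGACAGttCC
Amer3: gTCAGCACCacGGcCAGCtCC

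The Lhfpl5 site lay at chr17:28575641-28575661 on the minus strand, 78 bases before the gene start, that of Hrh3 at chr2:180104574-180104594 on the plus strand, 187 bases before the start, and that of Celsr3 at chr9:108825918-108825938 on the plus strand, 127 bases before the start. The Syn1 site lay at chrX:20921130-20921150 on the minus strand, 232 bases before the start. The 1 gene with a match that fell was Rasgrf1, a Ras exchange factor, by 2.11 on the log2 scale at a very low level, from a mean of 0.280 to 0.0566 CPM. Rasgrf1 passed the filter on low counts through the cortical cells (mean 4.03 CPM), so its fall says nothing about this contrast. Its match is shown for completeness.
Rasgrf1: TTCAGCAgCgcGGACAGgGaC

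The place of the element in its promoter is shown for Syn1 and Celsr3, with the 21 bases of the match in capitals. The 250 bases before the Syn1 start (chrX:20920919-20921168, minus strand) and before the Celsr3 start (chr9:108825795-108826044, plus strand) read as follows.
Syn1 upstream: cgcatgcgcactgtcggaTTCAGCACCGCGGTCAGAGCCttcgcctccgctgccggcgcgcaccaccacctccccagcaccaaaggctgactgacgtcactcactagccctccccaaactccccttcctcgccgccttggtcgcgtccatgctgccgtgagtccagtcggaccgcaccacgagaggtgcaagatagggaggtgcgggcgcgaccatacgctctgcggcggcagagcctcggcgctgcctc
Celsr3 upstream: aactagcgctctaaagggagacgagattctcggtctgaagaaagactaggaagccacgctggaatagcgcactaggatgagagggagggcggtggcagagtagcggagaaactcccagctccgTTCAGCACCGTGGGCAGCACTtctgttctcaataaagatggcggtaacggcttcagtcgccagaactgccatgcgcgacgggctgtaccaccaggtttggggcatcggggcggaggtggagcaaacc

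Several of the genes behind these windows act at synapses or as receptors. Syn1 encodes the synaptic vesicle protein synapsin I, and was at 1.28, 2.04 and 1.42 CPM in MEF and 36.1, 37.4 and 35.0 CPM in iGABA, a log2 fold change of 4.51 (SE 0.13, adjusted p = 2.93e-12, edgeR). Celsr3, an adhesion receptor of axon tracts, was at 1.57, 1.32 and 1.48 CPM in MEF and 300, 318 and 303 CPM in iGABA (log2 fold change 7.72, SE 0.08). No MEF library reached an iGABA library in either gene. Rph3a, a Rab3 effector at vesicles, rose from a mean of 0.211 to 157 CPM, and Chrm4, a muscarinic receptor, from 0.664 to 59.5 CPM. Hrh3, a histamine receptor, had 3 counts in MEF and 4412 in iGABA (ratio 1169, interval 400 to 5670), and Lhfpl5, a membrane protein of hair cells, no count in MEF and 417 in iGABA, at least 110-fold higher. Of the 20 genes 12 were under 2 CPM in MEF. The search depends on its tolerance. With 4 mismatches allowed, 39 matching windows were of genes that rose, 11 of genes that fell and 8 of genes that did not pass. At that tolerance 14 matching windows were of genes at least 16-fold higher and 3 of genes at least 16-fold lower. With 5 mismatches allowed 2.15% of all windows matched, 3.93% of those at least 16-fold higher and 1.76% of those at least 16-fold lower. A match is a description of letters and no evidence of binding.

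Chromatin regulators as a list of 51 genes mostly rose: 34 rose, 13 fell and 4 did not pass, with a median log2 fold change of 0.80 against 0.05 for all genes. The 4 largest rises were those of Actl6b, Dnmt3b, Chd5 and Dpf3. Actl6b, the neuronal subunit of the BAF remodelling complex, rose from a mean of 0.0674 to 15.8 CPM and Dpf3, another BAF subunit, from 0.179 to 4.11 CPM, although the cortical cells held 160 to 173 CPM of Actl6b. Chd5, a neuronal remodeller, rose from 2.79 to 83.8 CPM. Dnmt3b (chr2:153649450-153687730, mm10), a de novo DNA methyltransferase, was at 4.83, 4.24 and 3.38 CPM in MEF, 252, 275 and 239 CPM in iGABA and 7.92 to 9.38 CPM in the cortical interneurons. The iGABA libraries thus stood alone among the 9, with a log2 fold change of 5.95 over MEF (SE 0.11, adjusted p = 6.08e-14) and 4.92 over the cortical cells (adjusted p = 1.4e-13, edgeR). Tox, an HMG-box factor, fell from 30.9 to 1.86 CPM, where the cortical cells held 33.8 to 37.0 CPM.

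**Figure D2:**
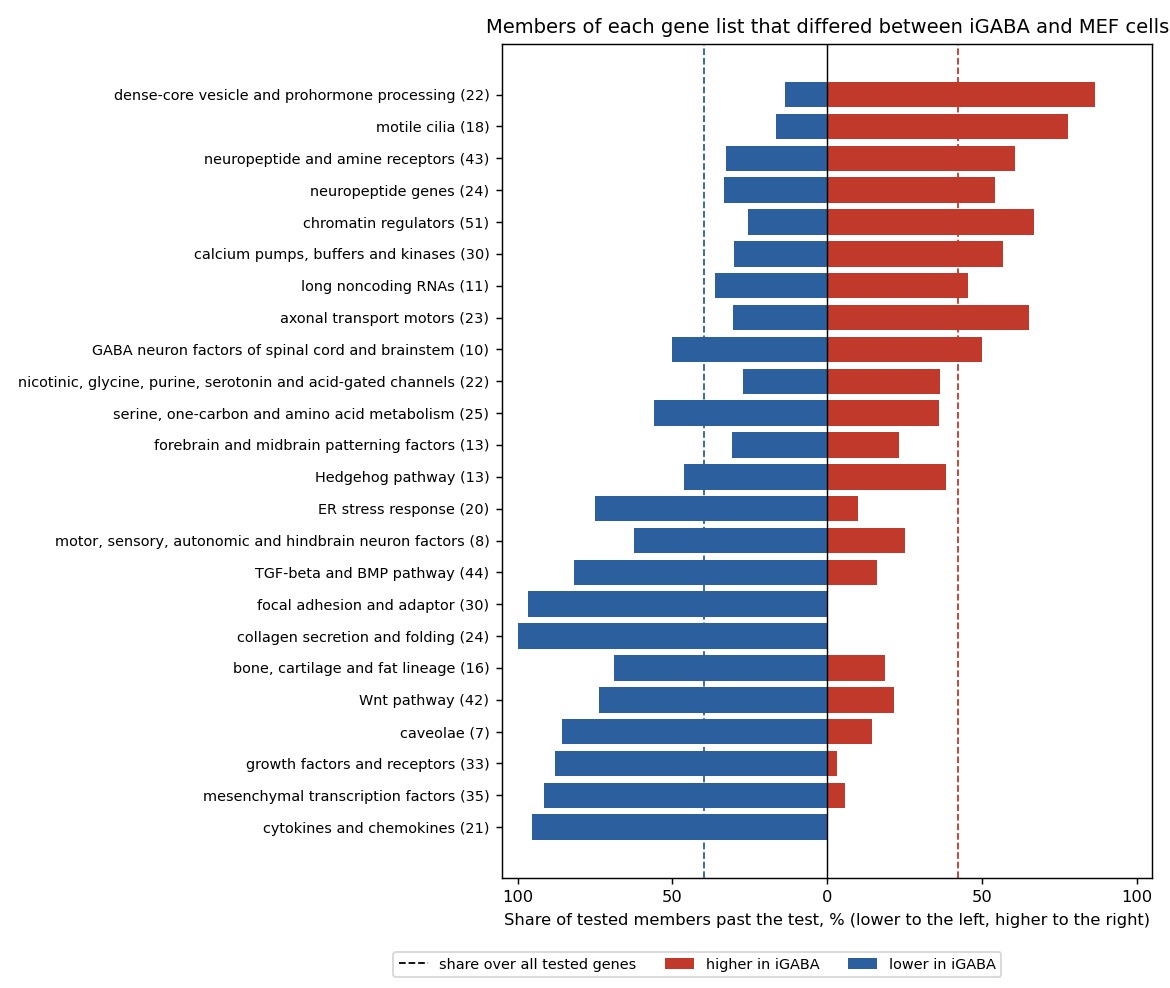
Share of the tested members of each gene list (their number in brackets) that were higher in iGABA (red, to the right) or lower (blue, to the left), in percent, with dashed lines at 42.1% and 39.7%, the shares over all tested genes. The dense-core vesicle list reaches furthest to the right (19 of 22) and collagen secretion furthest to the left (24 of 24), while several lists lie near the dashed lines on both sides.

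Many cell biological tasks are served by a widely expressed gene and a neuronal paralogue, and in 31 such pairs the balance shifted to the neuronal copy. The neuronal member rose in 28 pairs and fell in 2; the general member fell in 22 and rose in 5; and in 19 pairs both the rise and the fall were called. The ratio of neuronal to general CPM moved up without overlap between the groups in 29 pairs and down in 2, with a median shift of 3.36 on the log2 scale. Over all tested genes 42.1% rose and 39.7% fell, and the levels of the groups did not overlap for 84.9%, so a lack of overlap was common. Under scaling by library size alone 13 general members fell and 10 rose, but the neuronal log2 fold change was above the general one in 29 of 31 pairs under every setting tried. The pairs were listed with results of these data known, and counts between near-identical copies can be uncertain.

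In the membrane fusion machinery, Snap23, the SNARE of most cells, was at 93.7, 91.7 and 95.9 CPM in MEF and 31.7, 32.2 and 29.0 CPM in iGABA. Snap25 (chr2:136713453-136782428, mm10), its synaptic paralogue, was at 0.256, 0.296 and 0.0604 CPM in MEF and at 123, 122 and 118 CPM in iGABA. The groups did not overlap in either, and the log2 fold changes were -1.60 (SE 0.09) and 9.22 (SE 0.15). Per kilobase of exon, Snap25 made up 0.138% of the pair's level in MEF and 71.1% in iGABA.

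Signalling, cytoskeleton and metabolism showed the same exchange. The G protein gamma subunit Gng12 fell from a mean of 305 to 11.3 CPM and Gng3 rose from 0.210 to 76.4 CPM, so that the per-length share of Gng3 in the pair went from 0.190% to 94.9%. Vim, the intermediate filament of mesenchyme, fell from 4690 to 233 CPM, while Ina, alpha-internexin of neurons, rose from 0.276 to 64.4 CPM; Vim nevertheless still held the larger per-length share, with 16.6% for Ina in iGABA. Tubb6 fell by 2.48 and Tubb3, the neuronal beta-tubulin, rose by 5.58 on the log2 scale. In the hexokinase pair Hk2 fell by 2.42 and Hk1, counted here as the neuronal member, rose by 1.23. Hk1 was not confined to the converted cells and already made up 52.7% of its pair per length in MEF. The neuronal member made up more than 50% of its pair per length in 5 pairs in MEF and in 16 in iGABA.

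The exceptions were the splicing pair and a 14-3-3 pair. Ptbp2, the neuronal paralogue of the splicing repressor Ptbp1, was at 40.3, 39.6 and 34.0 CPM in MEF and at 20.3, 20.6 and 21.3 CPM in iGABA. It fell by 0.87 on the log2 scale (SE 0.08, adjusted p = 2.03e-07, edgeR), where the cortical interneurons held 404 to 463 CPM. Ptbp1 itself, whose decline accompanies neuronal differentiation, was at 262, 266 and 283 CPM in MEF and 243, 259 and 237 CPM in iGABA. Its small fall of 0.13 (adjusted p = 0.0404, edgeR) was lost without any of 4 single libraries (MEF 2, MEF 3, iGABA 4 and iGABA 6) and turned into a rise of 0.28 under scaling by library size alone. In the 14-3-3 pair Ywhah fell by 0.66 and Ywhaq by 0.39, the latter reversed to 0.03 under scaling by library size alone.

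**Figure D3:**
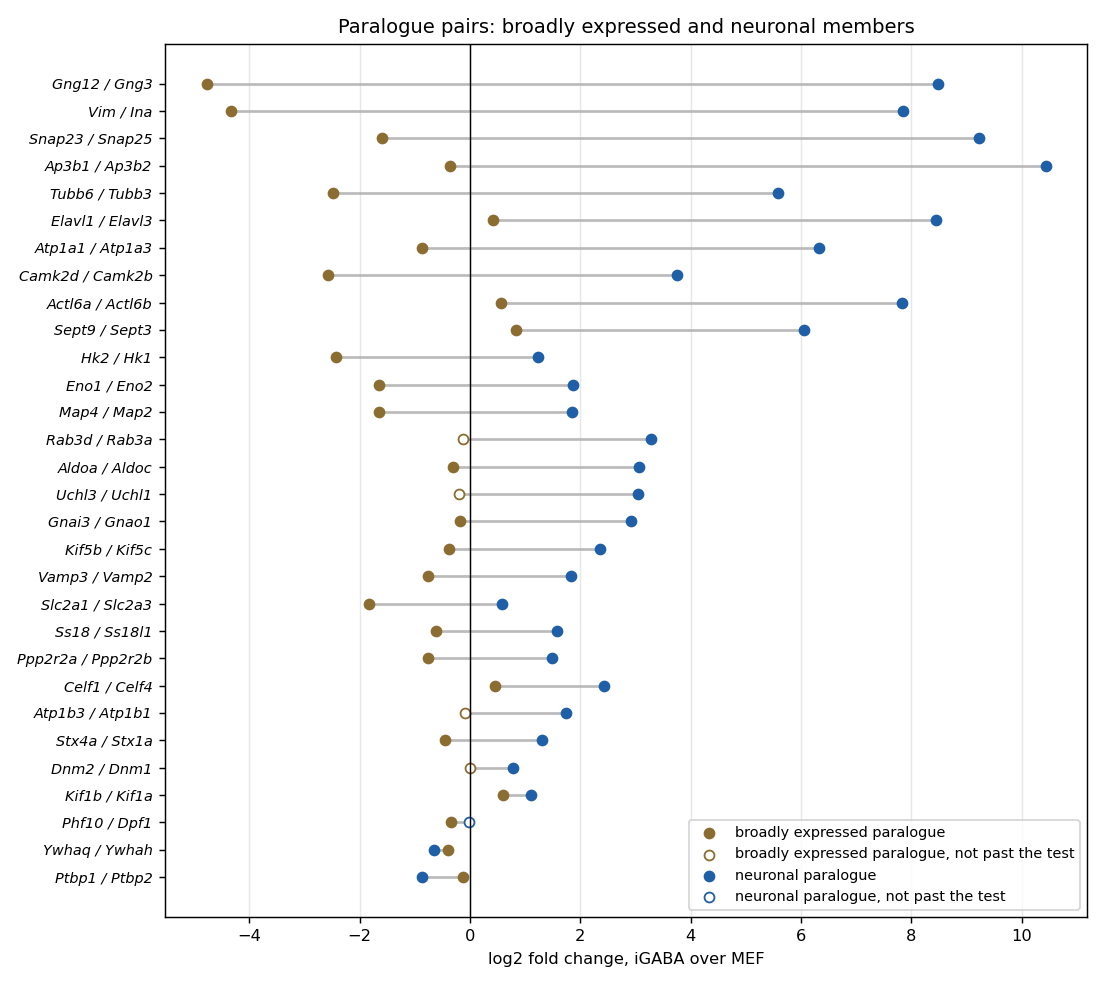
Log2 fold change of iGABA over MEF for the broadly expressed (brown) and the neuronal (blue) member of 30 of the 31 paralogue pairs; open symbols did not pass the test, and a line joins the members of a pair. The neuronal member lies to the right of the general one in 28 of these, and the exceptions are Ptbp1 with Ptbp2 and Ywhaq with Ywhah.

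Genes of the dense-core vesicle, the organelle that stores and matures peptide hormones, mostly rose. Of 22 genes, all tested, 19 rose and 3 fell (median log2 fold change 5.07). Chgb (chr2:132781278-132795079, mm10), chromogranin B of the vesicle matrix, was at 0.659, 0.461 and 0.513 CPM in MEF and 216, 220 and 220 CPM in iGABA. The iGABA libraries exceeded both the MEF libraries, by 8.65 (SE 0.14, adjusted p = 2.01e-14), and the 41.9 to 55.4 CPM of the cortical interneurons, by 2.16 on the log2 scale (adjusted p = 5.6e-11, edgeR). The other granins moved likewise: Chga rose from a mean of 0.172 to 133 CPM, Scg2 from 2.93 to 132 CPM, Scg3 from 0.221 to 191 CPM and Vgf from 2.89 to 110 CPM. Scg5, the chaperone of the prohormone convertase PC2, rose from 0.231 to 101 CPM.

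The enzymes that cut and finish prohormones did not move together. The convertases rose, Pcsk1 from 0.104 to 37.4 CPM and Pcsk2 from 0.0677 to 24.8 CPM. The enzymes that act after them fell. Cpe, carboxypeptidase E, which trims the cut peptides, was at 412, 450 and 459 CPM in MEF and 73.8, 73.3 and 70.7 CPM in iGABA, a log2 fold change of -2.60 (SE 0.07, adjusted p = 1.1e-12, edgeR), and 336 to 388 CPM in the cortical cells. Pam, which amidates peptide ends, fell from 169 to 29.3 CPM and Nucb2, the precursor of nesfatin, from 37.1 to 10.7 CPM. For Cpe and Pam the iGABA libraries were lowest of the 9. Syt7, the calcium sensor of slow release, rose from 2.40 to 364 CPM. Genes of this list that were also higher in iGABA than in the cortical cells, as 41.3% of all tested genes were while 39.3% were lower, included Scg2, Vgf, Chga, Pcsk1 and Syt7.

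**Figure D4:**
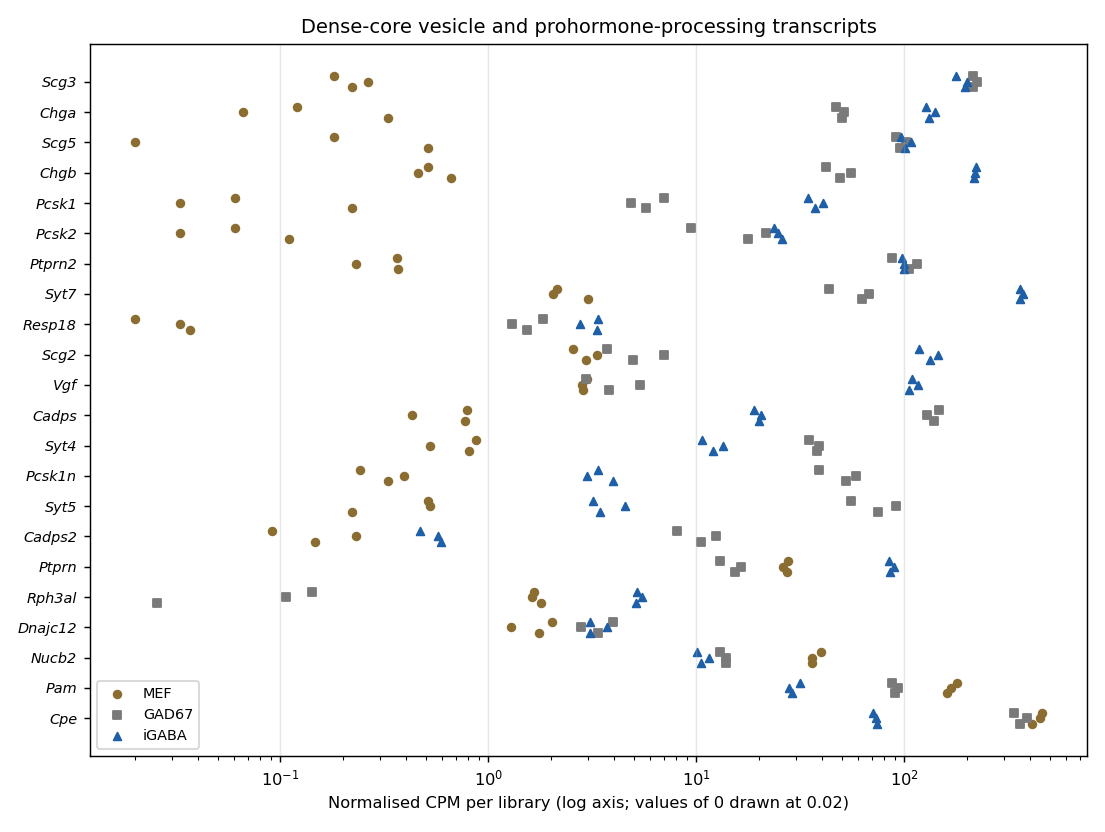
Levels of the 22 dense-core vesicle genes in CPM on a log axis, 1 symbol a library, for MEF (brown), cortical GAD67 (grey) and iGABA (blue); values of 0 are drawn at 0.02. Chgb, Chga and Scg3 lie under 1 CPM in MEF and above 100 CPM in iGABA, while Cpe, Pam and Nucb2 at the bottom run the other way.

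The cargo of such vesicles changed gene by gene. Of 36 neuropeptide genes 24 were tested, and 13 rose, 8 fell and 3 did not pass. Over all tested genes 42.1% rose and 39.7% fell, so no direction is given for this list. Prok2, prokineticin 2, was at 0.256, 0.263 and 0.453 CPM in MEF and 63.0, 63.0 and 60.5 CPM in iGABA, against 0.847 to 1.33 CPM in cortical cells. Trh, thyrotropin-releasing hormone, rose from a mean of 0.0445 to 19.2 CPM and Npy from 0.825 to 10.6 CPM. Pnoc and Crh had no count in MEF and 185 and 129 in iGABA, at least 49.0-fold and 34.2-fold higher. Penk, the enkephalin precursor, fell from 168 to 10.01 CPM, and Cck, the cholecystokinin gene of a class of cortical interneurons, fell from 0.484 to 0.0319 CPM, a level near that of a single count.

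Receptors for peptides and amines were more often raised than lowered. Of 51 listed 43 were tested, and 26 rose, 14 fell and 3 did not pass (median log2 fold change 2.12). Over all tested genes 42.1% rose and 39.7% fell. Besides Ntsr2 and Hrh3, the prolactin-releasing peptide receptor Prlhr went from 2 to 9970 counts (ratio 3962, interval 1097 to 32721). The neuropeptide Y receptor Npy2r was at 1.72, 1.61 and 1.60 CPM in MEF and 149, 134 and 144 CPM in iGABA, and Crhr2, a receptor for corticotropin-releasing hormones, rose from 0.0576 to 6.81 CPM. Npy2r in iGABA was also above the 2.09 to 2.60 CPM of the cortical cells. The receptors that fell included the adrenaline receptor Adrb1 (8.40 to 0.128 CPM) and the serotonin receptor Htr1b (4.61 to 0.0579 CPM).

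Ligand-gated channels outside the GABA and glutamate families divided: of 22 tested 8 rose, 6 fell and 8 did not pass, and the median of -0.03 changed sign to 0.22 under scaling by library size alone. Htr3a, the serotonin-gated channel that marks a class of cortical interneurons from the caudal ganglionic eminence, was at 1.06, 1.18 and 1.06 CPM in MEF and 352, 351 and 362 CPM in iGABA. Its log2 fold change was 8.33 over MEF (SE 0.09, adjusted p = 2.26e-15) and 1.81 over the cortical cells (adjusted p = 7e-12, edgeR). The nicotinic subunits Chrna4 and Chrnb2, which assemble into the main nicotinic receptor of brain, rose from means of 0.558 to 156 CPM and from 1.39 to 131 CPM, and the acid-sensing channel Asic2 from 0.138 to 28.03 CPM. The muscle nicotinic subunit Chrna1 went from 93 counts in MEF to 3 in iGABA, 39.0-fold lower (interval 12.9 to 193), and Glrb, the anchoring subunit of glycine receptors, fell from 35.0 to 3.73 CPM.

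Channel genes were also taken as name families and read against all tested genes, of which 42.1% rose and 39.7% fell. Of 74 tested potassium channel genes 42 rose and 21 fell (median 1.39). Of 23 voltage-gated calcium channel subunits 13 rose and 8 fell, and of 10 voltage-gated sodium channel subunits 6 rose and 4 fell. No direction is given for the calcium and sodium families, whose numbers are small. Together the potassium channels took 0.0285% ± 0.000383 of MEF counts and 0.222% ± 0.00583 of iGABA counts (SD, n = 3 each). Kcnh3, a channel of forebrain neurons, went from 1 to 2831 counts (ratio 2250, interval 404 to 88904), and Kcns3, a modifier subunit, from 821 counts in MEF to 3 in iGABA, 344-fold lower (interval 117 to 1673). Cacna1i, a T-type calcium channel, rose from a mean of 0.302 to 82.4 CPM and Cacna1e from 0.134 to 15.5 CPM. Scn3b, an auxiliary subunit of sodium channels, rose from 2.62 to 116 CPM.

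Release apparatus and axonal transport genes rose more often than they fell. Over all tested genes 42.1% rose and 39.7% fell. Of 14 tested synaptotagmins, the calcium sensors of vesicle fusion, 12 rose and 1 fell (median 3.51), with Syt2, the fast sensor of inhibitory and hindbrain synapses, rising from 0.0677 to 61.3 CPM. All 3 tested complexins, clamps of the SNARE complex, rose: Cplx1 went from 3 to 6201 counts (ratio 1643, interval 562 to 7968) and Cplx2 from a mean of 16.7 to 1043 CPM. Of 23 genes of axonal transport 15 rose, 7 fell and 1 did not pass. Their median was 0.37, against 0.05 for all genes, and 4 were at least 4-fold higher. In the kinesin name family 15 of 37 tested genes rose and 20 fell (median -0.49). Mapk8ip2, a scaffold that links cargo to kinesin, rose from 0.380 to 239 CPM and Kif5a, the neuronal kinesin heavy chain, from 1.12 to 137 CPM. Of 18 subunits of the V-ATPase, the proton pump that acidifies vesicles, 13 rose and 3 fell (median 0.40). Atp6v0e2 rose from 8.32 to 143 CPM, the level of the cortical cells (133 to 155 CPM).

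On the fibroblast side the transcription factors of mesenchyme fell almost as a block. Of 36 listed 35 were tested; 32 fell, 2 rose and 1 did not pass, and the median log2 fold change was -3.32. Prrx2, a homeobox factor of limb and face mesenchyme, was at 103, 106 and 106 CPM in MEF and 0.693, 0.573 and 0.532 CPM in iGABA, a log2 fold change of -7.43 (SE 0.11, adjusted p = 1.2e-14, edgeR). Osr1 fell from 41.2 to 0.309 CPM and Meox1 from 39.4 to 0.298 CPM. Against the others, Tbx3, a T-box factor of limb, was at 32.0, 33.7 and 33.6 CPM in MEF and 108, 115 and 109 CPM in iGABA, and Scx, the factor of tendon cells, rose from 24.7 to 42.5 CPM. Both were at most 0.741 CPM in the cortical cells.

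Adhesion, membrane caveolae and the collagen-making line of the secretory pathway fell together with them. Of 30 focal adhesion genes 29 fell and 1 did not pass (median -2.31): Tes, an actin regulator at adhesions, fell from 73.1 to 0.445 CPM and Flnc, a filamin, from 396 to 8.57 CPM, while Pxn, the adaptor paxillin, was at means of 71.6 and 70.4 CPM (adjusted p = 0.696, edgeR). Of 7 caveolar genes 6 fell; Cav1, the coat protein of caveolae, was at 482, 519 and 556 CPM in MEF and 1.90, 1.62 and 2.53 CPM in iGABA, whereas Pacsin3 rose from 33.4 to 49.1 CPM. All 24 genes of collagen secretion and folding fell (median -2.49), among them P4ha3, a prolyl hydroxylase of collagen (176 to 1.49 CPM), and Fkbp9, a folding enzyme (1158 to 50.5 CPM). Genes of the general response to stress in the endoplasmic reticulum moved less: of 20, 15 fell, 2 rose and 3 did not pass, with a median of -0.86.

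The collagen chains themselves numbered 43 tested genes, of which 37 fell and 6 rose (median -4.37), and their summed share of counts was 8.39% ± 0.285 in MEF and 0.174% ± 0.0289 in iGABA (SD, n = 3 each). The exceptions included Col22a1, a chain of tissue junctions, which was at 2.45, 1.41 and 3.29 CPM in MEF and 44.8, 32.2 and 51.4 CPM in iGABA, and Col6a4, which rose from 0.285 to 14.8 CPM. Of 27 integrins 18 fell, 5 rose and 4 did not pass, where 39.7% of all tested genes fell and 42.1% rose. Itga6, a laminin receptor found on neural and epithelial progenitors, rose from 109 to 587 CPM. Among 11 laminins 10 fell, and Lama5, a basement membrane chain, rose from 125 to 342 CPM. Of 15 matrix metalloproteinases 12 fell; the membrane-bound Mmp24 and Mmp15 rose, from 0.303 to 32.2 CPM and from 3.20 to 111 CPM. Of 12 classical myosin heavy chains 8 fell and 2 rose, Myh7b from 2.33 to 325 CPM.

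Most genes for secreted signals fell. Of 21 tested cytokines and chemokines 20 fell, 0 rose and 1 did not pass (median -3.77). Cxcl12, the chemokine that guides migrating interneurons and blood cells, was at 502, 521 and 533 CPM in MEF and 2.05, 1.72 and 2.53 CPM in iGABA (log2 fold change -7.96, SE 0.21). Ccl9 went from 1187 counts to 2, 747-fold lower (interval 206 to 6173), and Ccl5 from 359 to 1, 452-fold lower (interval 80.6 to 17890); both are also made by macrophages, whose markers fell alongside, and the part of those cells was not tested. Of 33 growth factor and receptor genes 29 fell and 1 rose (median -3.22). Hgf, hepatocyte growth factor, fell from 26.8 to 0.122 CPM and Igfbp7, a binding protein of insulin-like growth factors, from 305 to 2.50 CPM. The single rise was Igfbpl1, a relative of that binding protein, from 1.11 to 181 CPM, with 716 to 803 CPM in the cortical cells.

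Most tested genes of the TGF-beta and BMP pathways and of the Wnt pathway fell, and those of the Hedgehog pathway divided. Of 44 TGF-beta and BMP genes 36 fell and 7 rose (median -2.19): Bmp4 fell from 144 to 0.842 CPM and Ltbp1, which stores TGF-beta in the matrix, from 490 to 3.39 CPM. Bmp7, another BMP ligand, was at 7.47, 8.82 and 8.70 CPM in MEF and at 149, 156 and 147 CPM in iGABA, and Id2, a target of BMP signals, rose from 82.0 to 198 CPM. Of 42 tested Wnt genes 31 fell and 9 rose (median -2.95). Dkk2, a Wnt antagonist, fell from 174 to 0.297 CPM, Wnt2b from 15.9 to 0.0395 CPM and Wnt4 from 22.6 to 0.179 CPM, while the receptors Fzd9 and Fzd10 rose from 0.994 to 20.6 CPM and from 0.447 to 7.22 CPM. In Hedgehog signalling 6 of 13 tested genes fell and 5 rose, near the shares over all tested genes (39.7% and 42.1%). The coreceptor Gas1 fell from 399 to 16.2 CPM and the antagonist Hhip from 4.33 to 0.0423 CPM. The target genes Gli1 and Ptch1 rose, from 0.775 to 2.72 CPM and from 14.8 to 36.1 CPM, as did the ligand Dhh, from 0.402 to 4.63 CPM.

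Markers of lineages other than neuron and fibroblast were not uniformly low in iGABA cells. Cnp, a gene of myelinating cells, was at 13.4, 12.3 and 14.0 CPM in MEF and 165, 170 and 161 CPM in iGABA, with no overlap between the groups. The glial factor Sox10, by contrast, fell from 3.83 to 2.19 CPM, a call lost under scaling by library size alone and without MEF library 1 or iGABA library 4. Of 6 tested oligodendrocyte markers 4 rose and 2 did not pass, and of 7 Schwann cell markers 3 rose and 4 fell. The 2 that did not pass were Olig1, with 2 counts in MEF and 5 in iGABA, and Olig2, with 0 in both. They passed the filter on low counts through the cortical cells, so their result says nothing about this contrast. Mog, one of the oligodendrocyte markers that rose, had 0 counts in MEF and 13 in iGABA. It too passed the filter through the cortical cells, so its rise says nothing about this contrast either. Epcam, an epithelial adhesion molecule, rose from 0.491 to 30.4 CPM, with at most 0.239 CPM in the cortical cells, while 3 of 5 tested epithelial markers fell. Of 16 tested genes of bone, cartilage and fat lineages 11 fell and 3 rose: Matn4 fell from 83.8 to 0.802 CPM and Lpl from 236 to 2.73 CPM, and Sost, the sclerostin of bone cells, rose from 0.0783 to 10.3 CPM.

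Of 354 tested zinc-finger genes named Zfp 247 rose and 46 fell (median 0.69), and their share of counts went from 0.693% ± 0.0203 to 1.36% ± 0.0104 (SD, n = 3 each). Of 77 ribosomal protein genes 65 fell and 6 rose (median -0.87), although reads of their near-identical copies make single values uncertain. Of 25 genes of serine, one-carbon and amino acid metabolism 14 fell and 9 rose, where 39.7% of all tested genes fell and 42.1% rose. Among them Psat1, an enzyme of serine synthesis, fell from 257 to 21.1 CPM. Of 18 tested genes of motile cilia 14 rose, at low levels: Cfap54 rose from 0.0525 to 2.54 CPM, and Spag6l went from 1 to 97 counts (ratio 77.1, interval 13.51 to 3076). Of 18 SOX factors 12 rose and 5 fell; Sox3, a factor of neural progenitors, went from 1 to 2512 counts (ratio 1997, interval 358 to 78890).

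Short sequence motifs were counted in the promoter windows of the genes that changed most. The E-box CAGCTG, the core that proneural bHLH factors bind, was found in 21.8% of the windows of genes at least 16-fold higher, in 19.6% of those at least 16-fold lower and in 16.03% of all windows. The AP-1 site TGANTCA was found in 6.91%, 10.03% and 5.31%, and the TEAD site GGAATG in 12.4%, 17.2% and 12.5%. The SRF CArG core was found in 4 of 839 windows of the first set (0.477%), in 22 of 1077 of the second (2.04%) and in 1.49% of all. CpG dinucleotides averaged 15.5 a window in the first set, 13.0 in the second and 19.8 over all, so both extremes had fewer CpG than the rest. By the span of protein-coding genes, the share at least 4-fold higher was lowest in the middle: 16.4% of genes up to 5 kb, 10.1% of those of 20 to 50 kb and 19.5% of those over 200 kb. The share at least 4-fold lower was 13.2%, 14.1% and 24.7% in the same classes.

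The 3 iGABA libraries lay close together. Of 8175 genes with a mean of at least 20 CPM only 12 had a highest library at least 2-fold above the lowest, and in all 12 library 5 was lowest and library 6 highest, numbered as in the labels. Among the 12, Ccn1, a matrix signalling protein, was at 26.0, 13.6 and 33.6 CPM in libraries 4, 5 and 6, Col1a2 at 221, 138 and 283 CPM, Mki67, a marker of cycling cells, at 88.1, 53.0 and 108 CPM, and Cenpf, a protein of dividing chromosomes, at 27.2, 15.7 and 35.3 CPM. The same order was seen for 13.3% of all 8175 genes, for 25 of the 34 collagen chains with an iGABA mean of at least 1 CPM (73.5%) and for 139 of the 263 genes at least 4-fold lower than MEF (52.9%). It was seen for 142 of the 867 genes at least 4-fold higher (16.4%) and for 2 of the 21 dense-core vesicle genes of at least 1 CPM (9.52%). Most genes were ordered otherwise: of all 8175, library 5 was highest in 4660 and library 6 lowest in 4302, and library 5 was highest in 551 of the 867 and in 15 of the 21. The collagen share of counts was 0.176%, 0.145% and 0.202% in libraries 4, 5 and 6. Mki67 was at 113 to 143 CPM in MEF and fell to a mean of 83.1 CPM in iGABA (log2 fold change -0.67, adjusted p = 0.00658, edgeR), a call lost under scaling by library size alone.

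**Figure D5:**
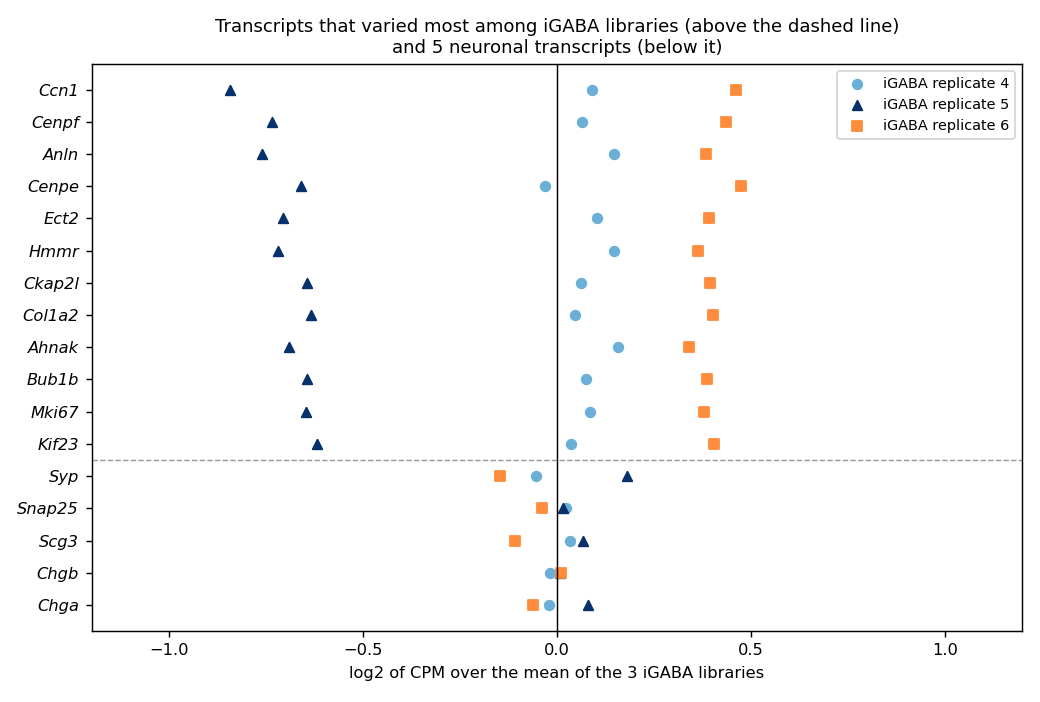
Log2 of each iGABA library's CPM over the mean of the 3 libraries, for the 12 most variable genes (above the dashed line) and 5 neuronal genes (below it). Library 5 is the lowest and library 6 the highest for each of the 12 genes, for example 13.6 and 33.6 CPM for Ccn1. The neuronal genes, picked under no rule, lie close to zero. The 12 were chosen for their spread among these same libraries, so the contrast with the 5 was fixed by that choice.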

How the data were processed

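Raw counts per gene were deposited in 1 table of 37224 genes; per the submitters' processing notes the tools included BWA 0.7.2, featureCounts and DESeq 1.10.1, on mm10. The strand setting of the counting is not given in the sources used here, so reads of a gene and of an antisense partner cannot be told apart. Symbols (95.2% of genes) came from GENCODE release 21 for mouse and promoters from RefSeq. All 9 libraries were fitted together with edgeR 4.0.16 in R 4.3.3 (TMM, filterByExpr with a minimum count of 10, quasi-likelihood test, adjusted p under 0.05; biological coefficient of variation 7.91%); members of a list under the filter were not tested. DESeq2 1.42.0, other scalings and filters, and omission of each library were alternatives. Scripts were checked on simulated data. Replicates differed by more than sampling noise (chi-square per gene 2.49 to 13.1). Intervals and floors of 3 counts cover counting error only. Named genes were the largest gains, losses and folds of all genes, the largest in each list and family, members of pairs, and the most variable in iGABA; genes outside this rule are marked or serve as reference values. Members and lists were chosen with earlier results of these data known. Genes for delivered factors are not reported here.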

Additional observations from a re-analysis of the deposited data

How the results depend on the processing

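The counts of higher and lower genes, in all and past 4-fold, stayed within 1.5 times their main values under each scaling, filter, tool and omission tried, except that a test against a 2-fold change (edgeR glmTreat) called 3590 genes higher and 3695 lower. Leaving out 1 library at a time gave 7349 to 7494 higher and 6967 to 7088 lower genes, and past 4-fold 2382 to 2464 and 2559 to 2652. Under scaling by library size alone the log2 fold changes of 3 named genes changed sign, to 0.064 for Ap3b1, 0.28 for Ptbp1 and 0.026 for Ywhaq, and Pxn, which did not pass, went to 0.39; that scaling moves all genes up by the shift given in the report. Without the filter on low counts Pxn stood at 0.0023. Ap3b1 and Ptbp1 also lost their call without several single libraries, and Xist passed in 3 settings only. Of 75 lists and families the sign of the median differed under library size alone in 7, and under another setting in 6; the cause was not tested. No paired analysis was made: the libraries are numbered in a single run across the groups, and whether any were paired is unknown. Low counts limit the folds of genes with at most 3 counts in a group.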
